A study of Danio rerio with 15 samples.

Results

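The distal region of the zebrafish caudal fin was compared with its proximal region across all 23404 genes of the authors' deposited table for this pair, of 23926 genes listed over the tables of the series. Libraries were taken by their titles and position labels. There were 5 distal and 5 proximal libraries among the 15 of the series, and the other 5 come from the middle region and are given side by side only. All are of the AB WT strain, and the labels name no treatment, age or injury. Each library was made from rRNA-depleted total RNA pooled over the matching region of 4 fish, of which 2 were male and 2 female. The labels do not say whether pools of different positions share fish.

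The caudal fin is a sheet of bony rays that carry mesenchyme, vessels and nerves and are wrapped in a stratified epidermis with pigment cells beneath it. Each ray grows by adding segments at its outer end, so the bone at the tip is the youngest and the bone near the body the oldest. A cut fin regrows the part it lost, and cells of the stump are said to have positional memory because the regrown part fits the place of the cut. The comparison asks which classes of transcripts differ between the base and the tip.

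A value below is a normalized count, the number of reads of a gene in a library divided by that library's size factor, with no division by gene length. Means are the authors', and the 5 library values were solved for from the digits of each mean and are listed in ascending order or as mean ± SD (n = 5 libraries). Libraries of a position are numbered from the smallest to the largest size factor, since the recovered values carry no replicate number of the labels. Folds are ratios of the means. A gene was called where the adjusted p of the authors' DESeq test was under 0.05, with the direction of the means. The p-values measure the spread between these pools and nothing beyond them. In bulk tissue, fewer cells of a type and less RNA per cell cannot be told apart. Genes with near-identical copies, such as tandem keratins, mucins, MHC and small RNA genes, may share reads, and the rule by which the authors counted such reads is not stated in the labels.

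The proximal and distal libraries held from 9882435 to 12551281 reads over the genes whose library values were recovered. For 36 genes, nearly all of them very abundant, the 5 values could not be recovered, and these are given by the authors' means with no SD. Markers of skin, bone, nerve, vessels, pigment and blood cells were detected at both ends of the fin. The superficial epidermis keratin gene *krt4* stood at 75634 normalized counts proximally and 104576 distally, and the osteoblast gene *sp7* at 115 ± 37.3 and 248 ± 45.2. The endothelial gene *kdrl* stood at 901 ± 149.9 and 937 ± 60.3, and the macrophage gene *mpeg1.1* at 451 ± 103 and 492 ± 105, and neither was called. The muscle creatine kinase gene *ckma* was low, at 71.8 ± 45.4 proximally and 6.56 ± 4.35 distally.

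Base and tip differed widely. Of all genes, 8415 were called, or 36.0%, with 4181 higher distally (17.9%) and 4234 lower (18.1%). The counts in the 2 directions were close, but the falls were deeper. At least 2-fold changes made up 1384 of the higher and 1739 of the lower calls, which is 5.91% and 7.43% of all genes. At least 8-fold changes made up 125 and 365. The median fold was 1.68 among higher and 1.77 among lower calls, and the median log2 fold change of all genes was -0.04. No read was found in any proximal library for 20 of the genes called higher and in any distal library for 70 of those called lower. A count of 0 allows up to 0.561 normalized counts proximally and 0.632 distally (3 reads over the 5 libraries, counting error only).

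Every distal library lay above every proximal library in 3664 of 23368 genes with library values (15.7%), and below in 3541 (15.2%). Among the called genes with library values the 5 distal and 5 proximal libraries were fully apart in 79.6% of the higher and 75.0% of the lower ones. A limma fit of the recovered counts called 25.8% of 18837 genes higher and 25.7% lower. The share called rose with the level of a gene, from 12.8% of genes with a mean under 10 to 70.9% of those at 10000 or more. Among genes under 10, 487 were called lower and 186 higher, whereas among genes from 1000 to 10000 the higher calls led, 794 against 485. Called folds were larger at low levels, with a median of 5.07 under 10, 2.14 from 10 to 100 and 1.51 from 100 to 1000. Whether falls were deeper than rises at a given level was not tested.

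**Figure D1:**
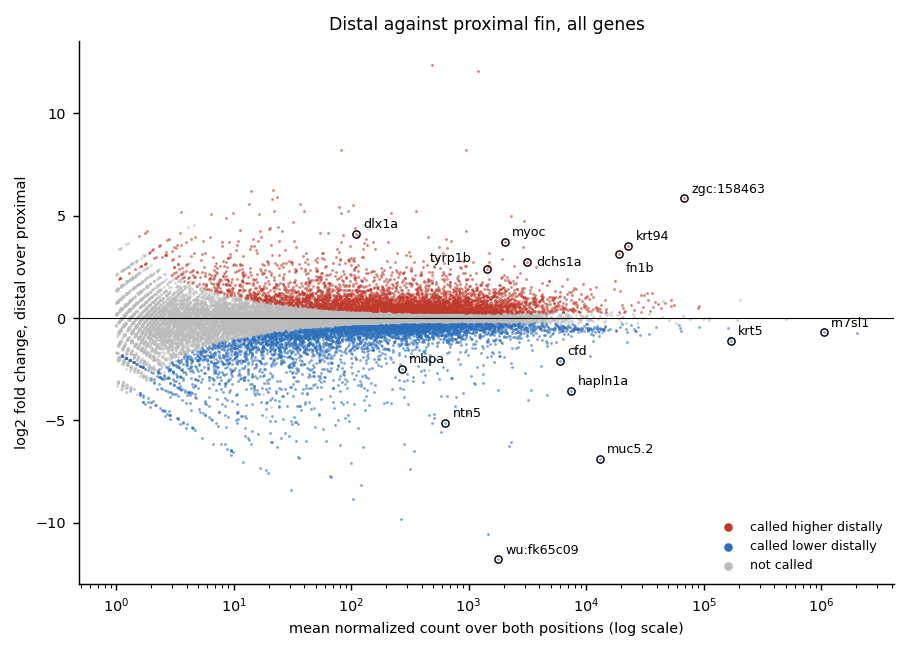
Log2 fold change of the distal over the proximal mean (vertical axis) against the mean normalized count over both positions (horizontal log axis) for all 23404 genes. Grey points were not called, red points were called higher and blue points lower distally, and named points mark genes described in the text. Genes with no read at one end are drawn at the limit that 3 reads give. Calls of at least 8-fold number 365 below and 125 above the zero line, and genes of mean under 10 hold 487 lower and 186 higher calls.

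In mean normalized counts, the summed fall lay in fewer transcripts than the summed rise. The 10 largest falls held 59.3% of the summed fall of all lower calls, whereas the 10 largest rises held 17.5% of the summed rise. The feature ENSDARG00000080337, an unnamed gene in the tables used here, went from 14.1% of the proximal to 8.85% of the distal counts. The 7SL RNA gene *rn7sl1*, whose RNA is the core of the signal recognition particle, went from 7.22% to 4.66%. The means of both fell, from 2545959 to 1525589 and from 1303191 to 803444, out of a summed fall of 3237656. Most of the 59.3% came from them. The nuclear RNA gene *malat1* fell from a mean of 217163 to 112314, and the actin crosslinker gene *flna* from 77528 to 50370.4. Of the protein-coding genes among these 10, the epidermal keratin gene *krt5* had the largest fall, from 232713 to 107569. Elongation factor genes *eef1a1l1* and *eef2b* were also among the 10 largest falls, from 104702 to 77456 and from 73843 to 53228. The largest rise was of *zgc:158463*, from 2349 to 134960.0, described further below with its adjusted p. Among the other large rises were matrix and surface epidermis genes, such as *krt94*, the desmosome gene *dspa*, *dsc2l*, *col12a1b* and *fn1b*. For the named genes other than *zgc:158463* the authors' deposited table gave adjusted p values from 2.59e-91 to 0.00217.

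The 87 gene lists described next are families read from gene symbols or short textbook lists, grouped by role. They were written with earlier results of these data known, and some pool several families. The share of calls in a list is therefore a description and not a test. A list is given by its calls and its median log2 fold change, to be read against 17.9% higher, 18.1% lower and a median of -0.04 over all genes.

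**Figure D2:**
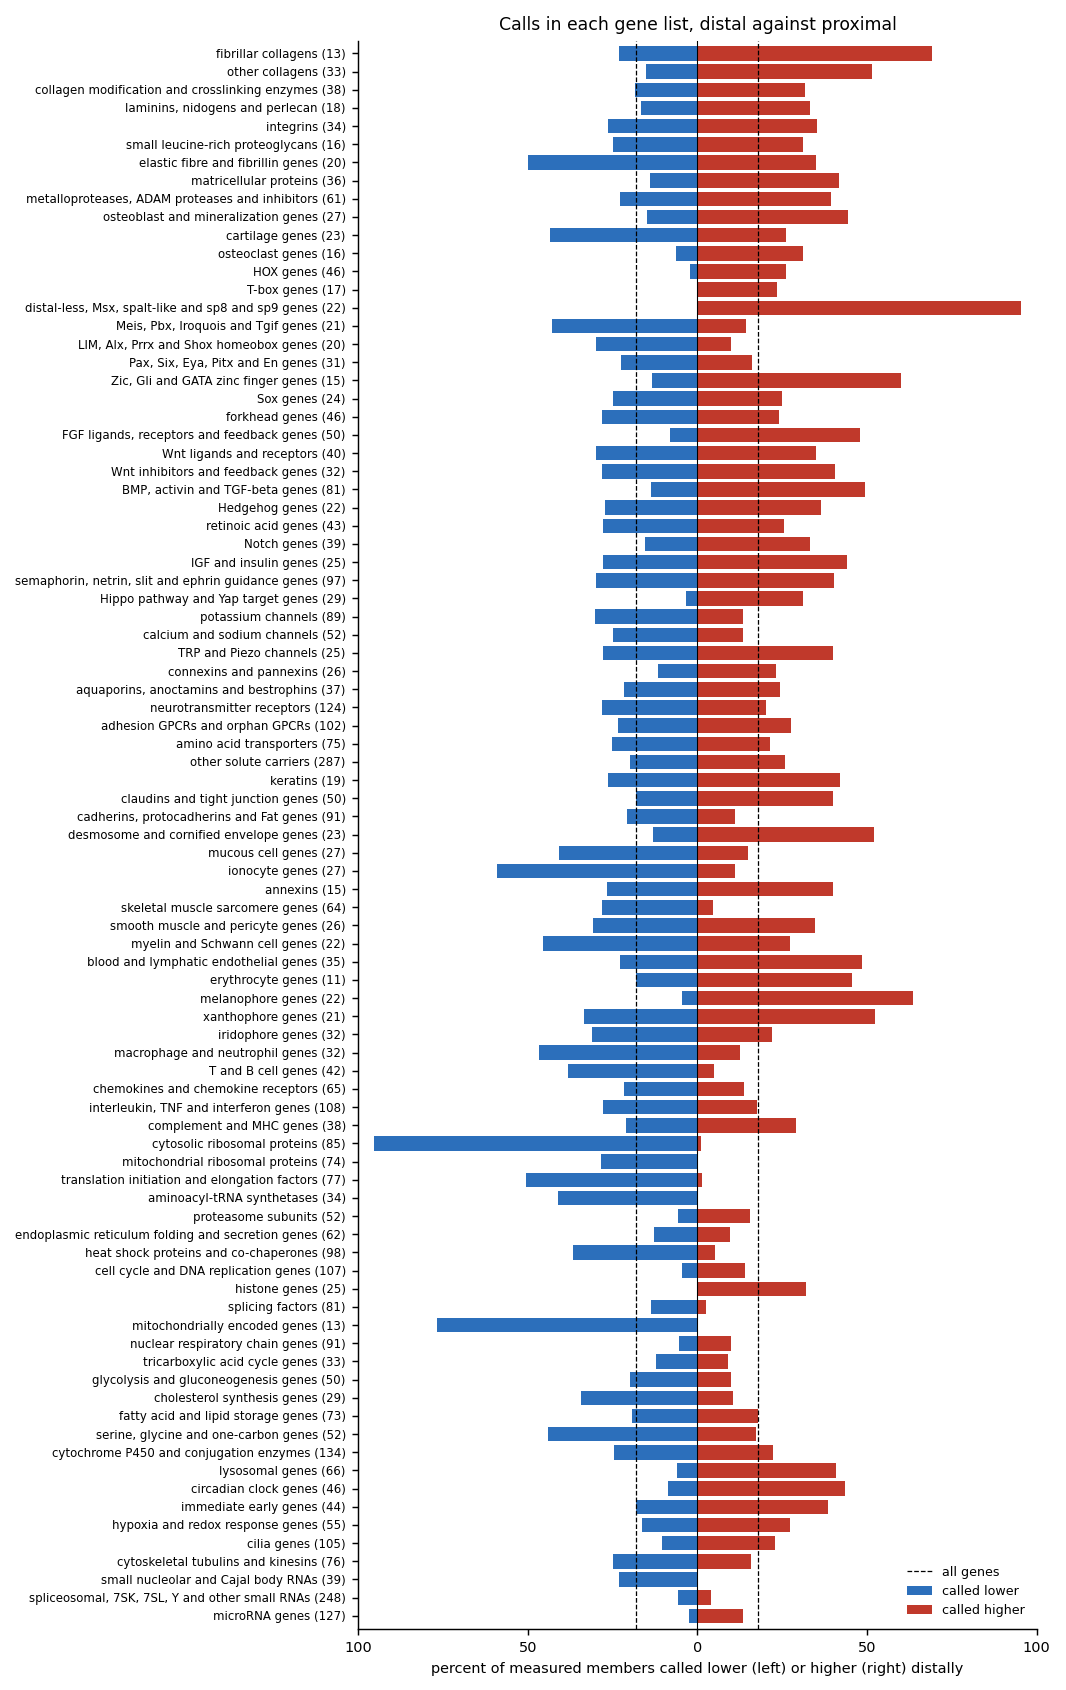
Percent of measured members of each gene list called lower (blue, to the left) and higher (red, to the right) in the distal against the proximal fin, with the number of measured members after each name. Dashed lines mark the 18.1% lower and 17.9% higher over all genes. Cytosolic ribosomal proteins stand out to the left with 81 of 85 lower, and the distal-less, Msx, spalt-like, sp8 and sp9 genes to the right with 21 of 22 higher.

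Calls among genes of protein synthesis were nearly all in the lower direction, and they took in most of the cytosolic ribosomal proteins. Of 85 measured ribosomal protein genes, 81 were called lower (95.3%) and 1 higher, with a median log2 fold change of -0.52. The single rise was *faub*, a ubiquitin-like fusion gene of low level, at 77.1 ± 8.49 and 108 ± 16.2. The large subunit genes *rpl9* and *rpl7a* fell 1.73-fold and 1.62-fold. For *rpl9* (ENSDARG00000037350) the proximal libraries held 12772, 13725, 13937, 14762 and 14853 normalized counts and the distal libraries 6927, 7820.2, 8086, 8176 and 9505. The lowest proximal library was well above the highest distal one. Summed over the 84 members with library values, ribosomal protein counts stood at 912419.6 ± 51528 proximally, 868452 ± 61623 in the middle and 628592 ± 36468 distally. The 5 distal sums, 590246, 594901, 636137, 643842 and 677833, all lay below the 5 proximal ones, 851723, 872286, 910209, 961470.0 and 966410.0. The falls were modest in fold, with the strongest at a log2 of -0.81 and the weakest at -0.32.

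In other lists of the translation machinery lower calls also led, and many members were not called. Of translation initiation and elongation factor genes 39 of 77 were lower and 1 higher, median -0.34. Examples are *eef1db*, a subunit of the factor that recharges elongation factor 1 with GTP, from 2209.9 ± 175 to 1049.7 ± 79.5, and *eif2d*, an initiation factor gene, from 238 ± 17.6 to 125 ± 18.7. Mitochondrial ribosomal proteins were called lower in 21 of 74 and higher in 0, median -0.25, among them *mrpl32*, from 209.9 ± 20.4 to 127 ± 8.1. Aminoacyl-tRNA synthetase genes, whose products load amino acids on tRNA, were lower in 14 of 34 and higher in 0. The 20 other synthetase genes did not pass the test, and the most abundant, *kars*, stood at 3649 ± 525 and 3302 ± 322. Heat shock proteins and their co-chaperones, which fold new and damaged proteins, were lower in 36 of 98 and higher in 5. The small heat shock gene *hspb1* fell 4.18-fold, from 73.9 ± 20.5 to 17.7 ± 4.68, and *hspa12b* 2.59-fold.

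Over all measured members, small RNA genes of ribosome and RNA processing were called at shares near or under those of all genes. Of 39 small nucleolar and Cajal body RNA genes, 9 were lower and 0 higher, median -0.53. With a mean of at least 10 the calls were 9 lower and 0 higher of 24. Summed counts of the 39 fell from 23003 ± 3658 to 12670 ± 1031, with every distal sum below every proximal one. Among the genes called lower were 3 abundant copies of SNORA73, an H/ACA box RNA, and these copies may share reads. The gene *rmrp*, whose RNA is part of the ribonuclease that cuts precursor rRNA and mitochondrial primers, had proximal libraries at 27922, 29959, 31097, 32878 and 34236 and distal libraries at 9845, 13066, 13904, 14619 and 17294. All distal libraries were below all proximal ones, 2.27-fold on average, and the middle stood at 23341 ± 5828. Of 248 spliceosomal, 7SK, 7SL, Y and other small RNA genes 14 were lower and 10 higher, and copies of the 5S rRNA gene were called in both directions. By contrast, 8 of 25 histone genes were higher and 0 lower. Cell cycle and DNA replication genes were mostly not called (15 higher and 5 lower of 107), and the replication clamp gene *pcna* stood at 909.6 ± 117 and 1024 ± 110.1. Among cell cycle genes *ccnb2*, a cyclin of entry into mitosis, rose 2.53-fold, whereas *kif20a*, a kinesin of cell division, fell 3.34-fold. Splicing factor genes were called lower in 11 and higher in 2 of 81, among them *sf3b1*, from 8162 ± 474 to 5222 ± 288. Adjusted p in the authors' deposited table over the genes called in these 3 accounts of protein synthesis and RNA ran from 6.30e-26 to 0.0159.

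Genes of the proteasome and of folding and secretion in the endoplasmic reticulum were called in 21.2% and 22.6%, against 36.0% of all genes. Proteasome genes were higher in 8 and lower in 3 of 52. The higher ones included *psmb10* and *psmb8a*, of the immunoproteasome, at 1.46-fold and 1.44-fold. Folding and secretion genes of the endoplasmic reticulum were 6 higher and 8 lower of 62. The vesicle coat gene *sec23b* and *creb3l1*, a regulator of secretion in bone cells, rose 1.88-fold and 1.97-fold. For *sec23b* the proximal libraries held 5584, 5645, 5712, 5761 and 7344 and the distal libraries 10073, 10590.3, 11354, 11606 and 12813, without overlap. Adjusted p over these genes ran from 2.70e-16 to 3.34e-05 in the authors' deposited table.

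**Figure D3:**
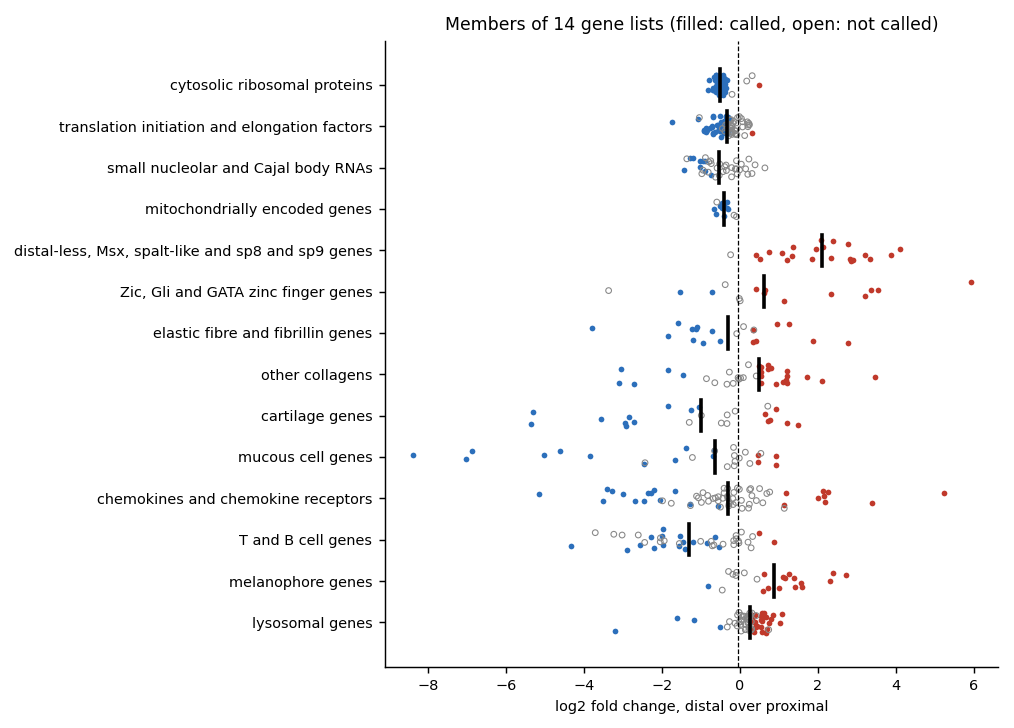
Log2 fold change, distal over proximal, of each measured member (points) of 14 gene lists, with the list's median as a black bar and the median of all genes as a dashed line. Filled points were called and open points were not. Ribosomal protein genes form a tight cluster around -0.52, while the lists of mucous cell and chemokine genes spread over a wide range.

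Transcription factor genes of appendage patterning were split by family. The distal-less, Msx, spalt-like, sp8 and sp9 genes, most of them markers of the tips of growing limbs and fins, were called higher in 21 of 22 (95.5%), lower in 0, median 2.11. In the distal libraries the distal-less gene *dlx1a* (ENSDARG00000013125) held 193, 199, 209, 216 and 224, and in the proximal libraries 7.57, 11.8, 12.0, 13.2 and 15.2, a 17.4-fold rise without overlap. The spalt-like zinc finger genes *sall3b* and *sall3a* rose 10.2-fold and 9.19-fold, to 291 ± 31.2 and 103 ± 8.69. The most abundant member, *dlx3b*, rose from 889 ± 182 through 1386 ± 295 in the middle to 3212 ± 794. Genes *dlx1a* and *dlx2a*, *dlx3b* and *dlx4b*, and *dlx5a* and *dlx6a* are direct neighbours in the RefSeq order of the GRCz12tu assembly, and all 6 were called higher, at log2 values from 1.37 for *dlx4b* to 4.12 for *dlx1a*. The 6 were set together after their values were seen.

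Zic, Gli and GATA zinc finger genes were higher in 9 of 15 and lower in 2. The genes *zic2a* and *zic5*, direct neighbours in the GRCz12tu order, rose 9.28-fold and 10.4-fold, to 565 ± 40.6 and 138 ± 16.2. Forkhead genes had no common direction, with 11 higher and 13 lower of 46. The forkhead genes *foxo1a* and *foxo1b* rose to 2957 ± 456 and 1029 ± 158 from 1136 ± 108 and 330.4 ± 29.7. In the other direction *foxa3* fell from 167 ± 22.9 to 15.6 ± 4.13, and *foxn1*, known in mouse as the gene of the nude phenotype of skin and thymus, from 221 ± 66.8 to 47.9 ± 18.6. Sox genes were balanced at 6 higher and 6 lower of 24. The most abundant, *sox3*, rose 3.82-fold to 3023 ± 672, and *sox21a* fell 3.79-fold to 25.1 ± 5.95. Meis, Pbx, Iroquois and Tgif genes were lower in 9 of 21 and higher in 3. Among the lower ones *irx1a*, of the Iroquois family, fell from 157 ± 35.1 to 19.9 ± 8.74 and *meis1a* from 176 ± 10.2 to 43.6 ± 7.26, whereas *pknox2* rose to 97.2 ± 4.49 from 45.1 ± 8.3. Over the called genes named among the transcription factors, the authors' deposited table gave adjusted p values from 1.51e-106 to 9.59e-08.

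Among the other patterning families, HOX genes were higher in 12 and lower in 1 of 46, and T-box genes in 4 and 0 of 17. The T-box gene *tbx1* rose 3.6-fold, from 74.5, 86.6, 88.0, 93.6 and 118 to 251, 267, 315, 377 and 446. No distal library was as low as a proximal one. LIM, Alx, Prrx and Shox homeobox genes were lower in 6 and higher in 2 of 20. Pax, Eya, Pitx and En genes and the sine oculis homologs were lower in 7 and higher in 5 of 31, but 1 and 5 with a mean of at least 10, and the higher ones included *pax7a* and *pax7b*, genes of pigment cell precursors and muscle stem cells, at 2.54-fold and 1.85-fold. Wnt ligands and receptors were 14 higher and 12 lower of 40, Hedgehog genes 8 and 6 of 22, and retinoic acid genes 11 and 12 of 43. The vitamin A carrier gene *rbp4*, the most abundant of the retinoic acid list, fell from 15560.1 ± 1572 to 7209 ± 453, and *bco1*, of the enzyme that splits carotene, rose 6.77-fold. Over the called genes named, the authors' deposited table gave adjusted p values from 6.55e-78 to 2.30e-11.

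**Figure D4:**
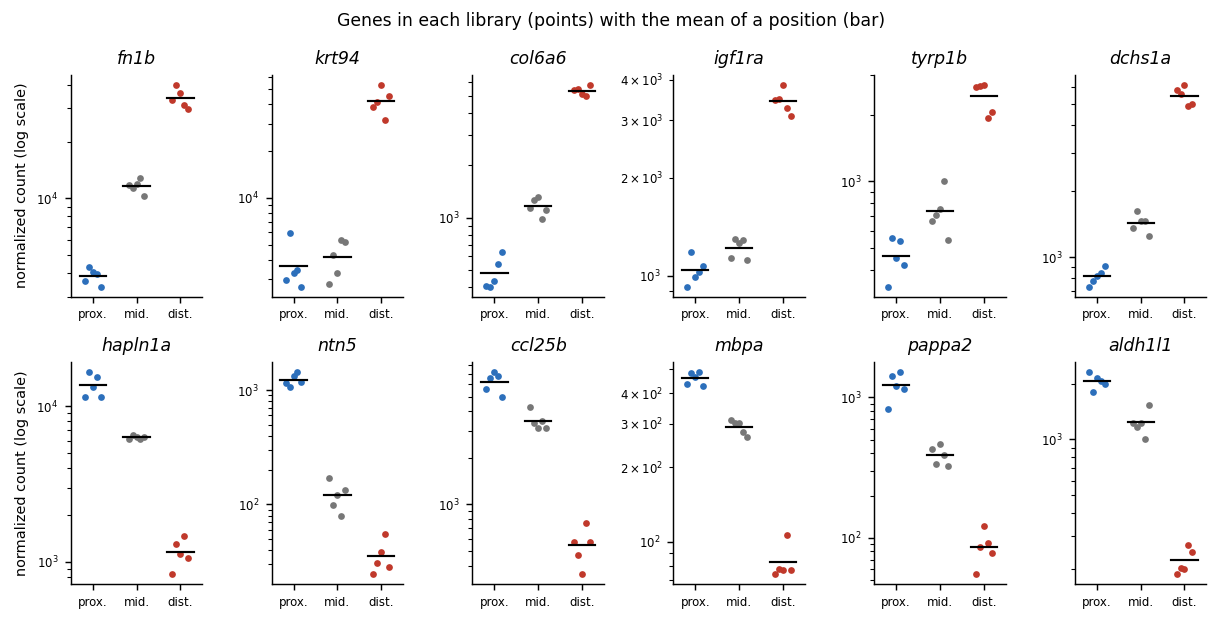
Normalized counts (log axis) of 12 genes in each of the 5 proximal, 5 middle and 5 distal libraries, with the mean of a position as a bar. The upper row shows genes higher and the lower row genes lower at the tip. In all 12 genes the 5 distal points lie apart from the 5 proximal points, and the middle libraries are shown beside them without a test.

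In the matrix, higher calls outnumbered lower ones among collagen and matricellular genes, and the reverse held among elastic fibre genes. Of fibrillar collagen genes 9 of 13 were higher and 3 lower, and of other collagen genes 17 of 33 and 5. The type VI collagen gene *col6a6* (ENSDARG00000059269) held 402, 406, 434, 544 and 636 in the proximal and 4975, 5137, 5419, 5495 and 5799 in the distal libraries. The groups were far apart, 11.1-fold on average. The basement membrane collagen genes *col4a5* and *col4a6* rose 3.3-fold and 4.3-fold. The type XV collagen gene *col15a1b* fell from 403 ± 47.8 to 147 ± 24.7. Fibronectin gene *fn1b* (ENSDARG00000006526), whose product links cells to collagen, held 3385, 3636, 3931, 4052 and 4284 proximally and 29712, 31362, 33408, 36077 and 40139 distally. It had one of the 10 largest rises in counts, and the middle libraries stood at 11599 ± 947. Summed over 36 matricellular genes, counts rose from 43949 ± 1304 to 99661 ± 6377. Within that list 15 of 36 were higher and 5 lower, with the thrombospondin gene *thbs3b* at 12.3 ± 0.972 and 427 ± 58.2 and the periostin gene *postna* at 4540.3 ± 445 and 2551 ± 213.

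Elastic fibre and fibrillin genes were called lower in 10 and higher in 7 of 20, median -0.30. Both elastin genes were lower, *elna* from 268 ± 20.5 to 74.5 ± 23.2 and *elnb* from 207 ± 55.6 to 88.5 ± 21.8. The gene *emilin2b*, of a glycoprotein found at elastic fibres, fell 13.9-fold. Its proximal libraries held 937, 1026, 1067, 1119 and 1242 and its distal libraries 70.5, 75.2, 77.7, 82.3 and 83.1. The fibrillin genes *fbn2a* and *fbn2b* rose, with *fbn2a* at 105 ± 29.1 and 716 ± 50.9 and *fbn2b* at 466 ± 38.6 and 901 ± 110.1. The small leucine-rich proteoglycans, which sit on collagen fibrils, were split with 5 higher and 4 lower of 16. Osteoglycin (*ogn*) rose from 53.8 ± 14.1 to 850.4 ± 58.1 and osteomodulin (*omd*) from 6.76 ± 2.34 to 120.2 ± 19.6, whereas decorin (*dcn*) fell from 2274 ± 256 to 1133 ± 134 and biglycan (*bgnb*) from 133 ± 9.68 to 30.3 ± 5.19.

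Among collagen modifying and crosslinking enzymes 12 of 38 were higher and 7 lower. A limma fit scaled by the totals of the genes with recovered values gave 12 higher and 13 lower. With equal totals of both positions over all genes, limma gave 16 higher and 7 lower. The procollagen proteinase enhancer genes differed within the family, as *pcolce2b* and *pcolceb* rose 10.3-fold and 3.1-fold and *pcolcea* fell 3.66-fold. The lysyl oxidase-like genes *loxl1* and *loxl3a*, whose products crosslink collagen and elastin, fell, *loxl1* from 1428 ± 85.5 to 694 ± 90.1 and the other from 83.9 ± 6.31 to 13.7 ± 5.54. Of metalloproteases, ADAM proteases and their inhibitors 24 of 61 were higher and 14 lower. The ADAMTS protease gene *adamts8a* rose 7.47-fold, to 3374 ± 99.9, and *adamtsl3* fell 8.48-fold. Integrin genes, receptors for this matrix, were called 12 higher and 9 lower of 34. The leukocyte integrin genes *itgam* and *itgb2* were lower, at 181 ± 50.1 and 74.0 ± 18.3 and at 496 ± 60.3 and 271 ± 55.2. Laminin, nidogen and perlecan genes were 6 higher and 3 lower of 18, among them *lamb1a*, 2.64-fold higher. Over the called matrix genes named, the authors' deposited table gave adjusted p values from 1.24e-185 to 2.09e-05.

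Higher calls led among bone genes and lower calls among cartilage genes. Osteoblast and mineralization genes were called higher in 12 of 27 and lower in 4, median 0.44. The alkaline phosphatase gene *alpl*, needed to mineralize bone, rose from 538 ± 66.4 to 1324 ± 99.0, and *ankha*, an exporter of the mineral inhibitor pyrophosphate, from 275 ± 75.7 to 1598 ± 351. Among the lower members, the secretory phosphoprotein genes *scpp6* and *scpp7* varied widely between the proximal pools. Proximal libraries held 20.7, 89.0, 112, 282 and 697 counts of *scpp7*, the middle libraries held none and the distal libraries 0, 0, 0, 1.07 and 3.11. The proximal SD of *scpp7* exceeded the mean, and without distal library 4 its log2 fold change went from -8.17 to -9.81. For *scpp6*, at 121 ± 119 and 1.88 ± 0.776, the log2 fold change went from -6.01 to -5.26 without proximal library 4. In a limma fit neither gene passed the filter on low counts once a proximal library was left out. Cartilage genes were lower in 10 of 23 and higher in 6, median -0.99. Among the 18 with a mean of at least 10 the counts were near each other, at 7 lower and 6 higher with a median of -0.33. The link protein gene *hapln1a*, whose product ties hyaluronan to proteoglycans, held 11413, 11499, 13318, 15468 and 16582 proximally and 837, 1066, 1120.3, 1304 and 1474 distally. The 2 ranges were far apart, 11.8-fold on average, with the middle at 6302 ± 141. The aggrecan gene *acana* fell 7.15-fold, and *ucmaa*, a cartilage matrix gene, rose 2.8-fold. Of osteoclast genes 5 of 16 were higher, among them cathepsin K (*ctsk*), from 1123 ± 149 to 1666 ± 143, and 1 was lower. Adjusted p over the called skeletal genes ran from 4.52e-53 to 0.00136 in the authors' deposited table.

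Some signalling families were split among their ligands, receptors and inhibitors, and in others, such as the BMP and FGF lists, higher calls led. In the IGF and insulin list 11 of 25 were higher and 7 lower. The growth factor genes *igf1* and *igf2a* fell, from 169 ± 22.3 to 32.4 ± 7.54 and from 631 ± 89.5 to 201 ± 22.2, whereas the receptor genes *igf1ra* and *igf1rb* rose 3.3-fold and 2.12-fold. For *igf1ra* (ENSDARG00000027423) the proximal libraries held 927, 991, 1025, 1071 and 1188 and the distal libraries 3089, 3287, 3457, 3492 and 3863. The gene *pappa2*, of a protease that cuts IGF binding proteins, fell in every distal library, from 825, 1146, 1203, 1414 and 1521 to 55.3, 78.5, 85.3, 91.3 and 121. Its fall was 14.2-fold. Binding protein genes were split, with *igfbp3* higher (532 ± 28.5 and 1427 ± 163) and *igfbp5b* lower (3469 ± 187 and 1262 ± 133).

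Wnt inhibitors and feedback genes were likewise split, at 13 higher and 9 lower of 32. The Frizzled-related gene *frzb* fell from 1464 ± 355 to 75.3 ± 19.9, while *notum1a*, of an enzyme that inactivates Wnt ligands, rose from 90.7 ± 18.9 to 601 ± 97.2. In the BMP, activin and TGF-beta list 40 of 81 were higher (49.4%) and 11 lower, and in the FGF list 24 of 50 and 4. The ligand gene *gdf6a* rose from 72.6 ± 24.0 to 287 ± 31.3, and *fgf24* from 90.4 ± 24.6 to 430.1 ± 87.4. Paralogs of the BMP and Wnt antagonist gene sostdc1 moved in opposite directions, *sostdc1a* falling from 76.6 ± 13.1 to 4.11 ± 1.65 and *sostdc1b* rising from 1.12 ± 1.69 to 42.8 ± 7.38. Without proximal library 1 the log2 fold change of *sostdc1b* went from 5.25 to 6.56, and with any 1 distal library left out *sostdc1b* did not pass the filter of the limma fit. Hippo pathway and Yap target genes were called higher in 9 of 29 and lower in 1. The Yap target genes *ctgfb* and *amotl2b* rose 3.49-fold and 3.36-fold, while *yap1* itself stood at 2695 ± 54.8 and 2625 ± 188 and was not called. Notch genes were higher in 13 and lower in 6 of 39, with the glycosyltransferase gene *lfng*, which tunes Notch, at 362 ± 40.9 and 757 ± 38.9, and the ligand gene *jag2a* at 1658 ± 281 and 899 ± 83.4.

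Guidance genes, whose products steer axons, vessels and migrating cells, were often called, with 39 higher and 29 lower of 97. In all 70.1% were called, against 36.0% of all genes. Of the 97, 94 had a mean of at least 10, and the share called depends on level. Over all genes it was 34.7% at means from 10 to 100, 45.4% from 100 to 1000 and 53.7% from 1000 to 10000. The netrin gene *ntn5* (ENSDARG00000095850) held 1074, 1155, 1179.5, 1332 and 1442 proximally and 24.7, 28.6, 30.6, 38.5 and 55.0 distally. The ranges were far apart, 34.9-fold, and the middle stood at 121 ± 35.3, near the distal end. The ephrin receptor gene *ephb2a* fell 65.3-fold, from 82.0 ± 5.02 to 1.26 ± 0.92. Higher at the tip were the netrin receptor gene *unc5b*, 4.77-fold, and *epha2a*, 3.18-fold. Chemokine and chemokine receptor genes were lower in 14 and higher in 9 of 65. The ligand gene *ccl25b*, known in the mouse for drawing lymphocytes to thymus and gut, held 4969, 5631, 6593, 6793 and 7218 proximally and 354, 469, 567, 573 and 762 distally. It fell 11.5-fold, and *ccl19b* fell 35.5-fold. The ligand gene *cxcl14* went the other way, from 113 ± 24.4 to 1196 ± 83.0. Adjusted p over the called signalling, guidance and chemokine genes named in these 3 accounts ran from 4.55e-153 to 5.77e-08 in the authors' deposited table.

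Lower calls outnumbered higher ones among potassium, calcium and sodium channel genes. Potassium channel genes were lower in 27 of 89 and higher in 12, median -0.63, and with a mean of at least 10 in 16 of 41 and 11. The voltage-gated gene *kcnq5a* fell from 132 ± 13.9 to 7.75 ± 3.09, 17.0-fold, and *kcnh1a* 7.13-fold. The summed counts of the family went the other way, 5331 ± 303 against 6562 ± 157, and the most abundant member, the leak channel gene *kcnk1a*, rose from 871 ± 110.1 to 1818 ± 212. Calcium and sodium channel genes were lower in 13 and higher in 7 of 52. The N-type calcium channel copies *cacna1ba* and *cacna1bb* were called in opposite directions, at 42.2 ± 7.56 and 172 ± 13.3 and at 47.4 ± 5.56 and 13.3 ± 1.81. Neurotransmitter receptor genes were lower in 35 and higher in 25 of 124, but nearly balanced with a mean of at least 10, at 17 and 16 of 52. The glutamate receptor subunit gene *grin2bb* fell from 187 ± 30.8 to 5.69 ± 1.15, 32.8-fold. Amino acid transporter genes were 16 higher and 19 lower of 75. The arginine and lysine carrier genes *slc7a1* and *slc7a2* fell 8.93-fold and 5.3-fold, to 267 ± 91.8 and 194 ± 57.1, and the taurine carrier gene *slc6a6b* rose 2.03-fold. Over these called channel, receptor and carrier genes, the authors' deposited table gave adjusted p values from 2.47e-78 to 6.24e-10.

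Of the remaining channel and carrier families, TRP and Piezo channels were higher in 10 and lower in 7 of 25. The cation channel gene *trpc1* rose 9.46-fold, to 143 ± 26.5, and the calcium channel gene *trpv6*, which ionocytes use to take up calcium, fell 13.9-fold, to 3.49 ± 2.22. The touch channel gene *piezo1*, the most abundant of them, stood at 6933 ± 558 and 7071 ± 831 and was not called. Aquaporins, anoctamins and bestrophins were balanced, with 9 higher and 8 lower of 37. Connexins and pannexins, which join neighbouring cells, were higher in 6 and lower in 3 of 26, with *cx35.4* at 2773 ± 251 and 4492 ± 447. Adhesion and orphan receptors of the G protein class were 28 higher and 24 lower of 102, and *gpr153* rose 7.76-fold. Solute carriers other than those of amino acids were 74 higher and 57 lower of 287. The sulfate carrier gene *slc26a2*, needed for cartilage matrix, fell from 2920.2 ± 471 to 801 ± 175. The urea carrier gene *slc14a2* rose from 1033 ± 330.1 to 4150.1 ± 1628. Annexins, which bind membranes in the presence of calcium, were higher in 6 of 15, led by *anxa1c* at 3.35-fold, and lower in 4. Of tubulin and kinesin genes 19 were lower and 12 higher of 76. The microtubule-associated gene *map1ab* held 1040.1, 1102, 1405, 1424 and 1429.7 proximally and 112, 149.5, 159, 196 and 233 distally, with no overlap. Adjusted p over these called genes ran from 8.29e-54 to 3.36e-05 in the authors' deposited table.

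In the epidermis, lower calls outnumbered higher ones among mucous cell and ionocyte genes, and several surface keratin and junction genes were higher. Mucous cell genes were lower in 11 of 27 and higher in 4. The secretory cell gene *agr2*, used here as their defining marker, fell from 1466 ± 397 to 102 ± 23.5. The gel-forming mucin gene *muc5.1* held 1404, 1423, 1915, 2327 and 2491 proximally and 44.7, 53.5, 54.5, 65.6 and 170.1 distally. Both *muc5.1* and *muc5.2* were apart between the groups, and the fall of *muc5.2* was 116-fold. The glycosyltransferase genes *galnt8b.1* and *galnt8b.2*, direct neighbours in the GRCz12tu order, fell with them, whereas *galnt6* and *muc13a* rose 1.89-fold and 1.91-fold. Ionocyte genes, which mark the ion-pumping cells of fish skin, were lower in 16 of 27 and higher in 3, median -2.11. All 16 falls were at least 2-fold and came at low levels, with proximal means from 3.18 to 156. The sodium pump gene *atp1a1a.3* held 91.3, 146, 169, 186 and 189 proximally and 6.41, 7.26, 8.23, 12.0 and 12.0 distally. The ionocyte regulator gene *foxi3b*, their defining marker, stood at 20.9 ± 6.55 and 0.606 ± 0.556, so that its distal mean lay under the floor of 3 reads. Of the 3 rises, the carbonic anhydrase gene *ca2* was the most abundant member of the list, at 2901 ± 328 and 10993 ± 1674, and the summed counts of the list went from 9363 ± 709 to 17814 ± 1895.

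Keratins were called higher in 8 and lower in 5 of 19. The summed means of all 19 fell from 697999 to 596170. The abundant *krt5* and *krt17* were among the falls, *krt17* from 188246 to 135576. Over the 15 with library values the sum rose, from 89087 ± 7710 to 136474 ± 10516. The neighbouring genes *krt93* and *krt94* rose 26.7-fold and 11.6-fold, with *krt94* (ENSDARG00000044975) at 2682, 2944, 3276, 3413 and 5899 proximally and 31649.6, 38344, 41635, 45521 and 53664 distally. The middle libraries, at 4190.5 ± 1156, stood with the proximal ones. The basal cell keratin gene *krtt1c19e* fell from 4896 ± 750.0 to 1934 ± 811 but stood higher than both ends in the middle, at 21029 ± 2509.6. Desmosome and cornified envelope genes, which hold and harden surface cells, were higher in 12 of 23 and lower in 3. Examples are the envoplakin gene *evpla*, from 23938 ± 2500.4 to 43662 ± 7175, and the transglutaminase gene *tgm8*, 2.98-fold. Of claudin and tight junction genes 20 of 50 were higher and 9 lower, the abundant *cldnb* at 9599 ± 342 and 13101 ± 274. Cadherin, protocadherin and Fat genes, of adhesion and polarity, were lower in 19 and higher in 10 of 91. Among them the giant atypical cadherin gene *dchs1a*, a gene of tissue polarity, rose 6.69-fold, from 733, 780.0, 824, 843 and 913 to 4889.7, 4992, 5585, 5785 and 6149. No library of either end overlapped. In the same list *cdh27* fell from 597 ± 142 to 71.8 ± 31.4. Adjusted p of the epidermal genes, other than the 0 listed for *muc5.2*, ran from 4.41e-115 to 1.18e-04 in the authors' deposited table.

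Among nerve, muscle and vessel genes, those of myelin and muscle were more often lower and those of the endothelium more often higher. Myelin and Schwann cell genes were called lower in 10 and higher in 6 of 22. Their summed counts went the other way, 12543 ± 617 against 17434 ± 1512, and every distal sum lay above every proximal one. The median was -0.41 over all members and -0.06 over those with a mean of at least 10. Genes of myelin proteins fell, with *mbpa* (ENSDARG00000036186) at 429, 435, 464, 485 and 487 proximally and 74.1, 76.6, 77.0, 77.7 and 107 distally. The groups were apart, 5.58-fold, and *mpz* and *plp1b* fell 1.98-fold and 6.39-fold. The glial and pigment lineage genes *sox10* and *erbb3a* rose, from 193 ± 27.0 to 306 ± 22.0 and from 1965 ± 276 to 6390.3 ± 710.2. Skeletal muscle sarcomere genes were lower in 18 of 64 and higher in 3, and the titin gene *ttna* fell from 298 ± 53.8 to 59.7 ± 11.0. Summed counts of the 64 muscle genes ranged from 4613 to 5017 proximally and from 4269 to 4527 distally. Their part in the results of other lists was not tested. Smooth muscle and pericyte genes were split, 9 higher and 8 lower of 26, with the smooth muscle actin gene *acta2* at 215 ± 33.4 and 39.6 ± 13.7 and *pdgfra*, a fibroblast receptor gene, at 841 ± 45.9 and 1745 ± 139. Endothelial genes were higher in 17 of 35 and lower in 8. The largest rise among them was at a log2 of 1.98. The deepest fall, of the cadherin gene *cdh5*, was at -3.45, from a mean of 34.5 to 3.16. The vessel junction gene *cldn5b* rose 3.94-fold, from 116 ± 20.6 to 458 ± 57.3, and the clotting factor gene *vwf* fell from 253 ± 40.3 to 131 ± 21.3. Red cell genes varied widely between pools, as the globin gene *hbaa1* held 23.8, 48.0, 57.7, 90.5 and 165 proximally and 68.3, 243, 351, 566 and 617 distally. These ranges overlapped, although the authors' test called it. Of erythrocyte genes 5 were higher and 2 lower of 11. Over the called genes of nerve, muscle and vessels, the authors' deposited table gave adjusted p values from 4.38e-65 to 0.00868.

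Pigment cell genes were more often called higher than lower for melanophores and xanthophores and were mixed for iridophores. Of melanophore genes, which make and pack melanin, 14 of 22 were higher and 1 lower, median 0.86. The melanin enzyme gene *tyrp1b* (ENSDARG00000056151) held 336, 420.3, 451, 538 and 554 proximally and 1928, 2043, 2664, 2702 and 2728 distally. The ranges were apart, 5.25-fold, with the middle at 734 ± 168. Of xanthophore genes 11 of 21 were higher and 7 lower. Carotenoid uptake gene *scarb1* rose 4.28-fold, and the pteridine gene *gch2* 3.77-fold. Iridophore genes, with many enzymes of purine synthesis used by all cells, were 7 higher and 10 lower of 32. The purine gene *gart* fell from 753 ± 59.5 to 418 ± 80.0, *pnp5a* rose from 4128 ± 393 to 11544 ± 646, and the defining marker *pnp4a*, at 68.2 ± 7.11 and 72.6 ± 19.7, was not called.

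Lower calls outnumbered higher ones in the leukocyte and cytokine lists, and not among complement and MHC genes. Macrophage and neutrophil genes were lower in 15 of 32 and higher in 4, median -0.53, but their summed counts overlapped, at 8518 ± 1178 and 7943 ± 514. The neutrophil enzyme gene *mpx* held 117, 133, 219.6, 243 and 299 proximally and 27.8, 41.1, 94.1, 98.6 and 105 distally, and lysozyme (*lyz*) fell 4.65-fold. The values of *mpx* did not overlap but came close. T and B cell genes were lower in 16 of 42 and higher in 2, median -1.30. With a mean of at least 10 they were lower in 9 of 22, median -0.29, and the summed counts of the list overlapped, at 5827 ± 836 and 5909 ± 729. The T cell kinase gene *itk* fell from 81.6 ± 9.41 to 27.7 ± 1.43 and the receptor gene *ccr7* from 54.6 ± 18.2 to 11.1 ± 4.46. Members *cd36* and *cd3eap* entered this list by their symbols and are not lymphocyte genes. The authors' deposited table called both lower, at an adjusted p of 0.00118 and 0.0184, and they were picked with their values in view. Interleukin, TNF and interferon genes were lower in 30 and higher in 19 of 108, and their summed counts also overlapped, at 35324 ± 1558 and 37709 ± 2138. The interferon-induced genes *rsad2* and *isg15* fell 5.65-fold and 3.89-fold, whereas the cytokine receptor genes *crfb12* and *ifnlr1* rose 2.39-fold and 2.37-fold. Complement and MHC genes were 11 higher and 8 lower of 38. Within complement *masp1*, a protease gene of the lectin pathway, rose 4.96-fold, to 261 ± 45.8. Against that *cfd*, the factor D gene of the alternative pathway, held 8415, 9079, 9649, 10379 and 11259 proximally and 1534, 2246, 2383, 2542 and 2806 distally. Every distal library of *cfd* was below every proximal one, and *c4* fell 11.6-fold. The MHC class I gene *mhc1uka* rose from 1674 ± 68.8 to 2724 ± 264 and the invariant chain gene *cd74a* from 12471 ± 1308 to 17190.4 ± 1353. Over the called pigment and immune genes, the authors' deposited table gave adjusted p values from 2.16e-69 to 0.0021.

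Among metabolic genes, those of the lysosome were more often higher, and those of one-carbon metabolism, of cholesterol synthesis and of the mitochondrial genome more often lower. Lysosomal genes, of acid hydrolases and the proton pump, were higher in 27 of 66 (40.9%) and lower in 4, median 0.27. The hydrolase gene *hexb* held 414, 483, 490.3, 499 and 514 proximally and 948, 955, 996, 1002 and 1023 distally, and *ppt1* rose 2.11-fold. The libraries of the ends were apart for *hexb*, as they were for the summed counts of the list, 27849 ± 793 and 35356 ± 866. Genes of serine, glycine and folate metabolism were lower in 23 of 52 and higher in 9. Their summed counts did not fall, at 100098 ± 3760 proximally and 111161 ± 6112 distally, and the libraries overlapped. The folate enzyme gene *aldh1l1* (ENSDARG00000077004) held 1796, 1979, 2061, 2133 and 2312 proximally and 188, 201, 203, 248 and 271 distally. It fell 9.25-fold, and the methionine and homocysteine enzyme genes *bhmt*, *mat1a* and *cbsa* fell 3.8-fold, 5.11-fold and 9.7-fold. In the other direction, *psat1* of serine synthesis rose from 470.1 ± 50.0 to 1273 ± 115 and *odc1*, the first enzyme of polyamine synthesis, from 4526 ± 633 to 14321 ± 1230.4.

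Cholesterol synthesis genes were lower in 10 of 29 and higher in 3, median -0.65. The sterol enzyme gene *hsd17b7* fell from 2218 ± 527 to 449 ± 66.7, with the middle, at 2321 ± 308, close to the proximal end, and *nsdhl* fell 2.83-fold. The spread of this list between proximal pools was wide, with summed counts from 19604 to 35871 against 17601 to 27703 distally. Lipid storage genes were balanced at 13 higher and 14 lower of 73. The triglyceride enzyme gene *dgat2* rose 11.2-fold, to 1028 ± 289. The deepest fall of the list was of *fabp1b.2*, from a mean of 2904 to 1.91, a log2 of -10.57, and *fabp3* fell 2.06-fold. Of 13 mitochondrially encoded genes 10 were lower and 0 higher, for example *mt-nd4* from 9387 ± 856 to 5966 ± 707. Nuclear genes of the respiratory chain, which meet these products in the same complexes, were mostly not called, with 9 higher and 5 lower of 91. Limma scaled by the totals of the genes with recovered values gave 9 higher and 14 lower. With equal totals of both positions over all genes, limma gave 30 higher and 6 lower. Tricarboxylic acid cycle genes were 3 higher and 4 lower of 33. In glycolysis and gluconeogenesis 10 of 50 were lower and 5 higher, with *pck2*, of gluconeogenesis, at 559 ± 67.7 and 308 ± 41.9 and the lactate dehydrogenase gene *ldhba* at 2084 ± 102 and 3113 ± 148. Cytochrome P450 and conjugation enzymes were 30 higher and 33 lower of 134. The bile acid enzyme gene *cyp7a1a*, a gene known from liver, held 559.8, 582, 948, 1161 and 1229.8 in the proximal and 22.4, 25.9, 34.2, 35.0 and 48.0 in the distal libraries of the fin. Its level in the middle, 1025 ± 364, was as high as proximally. Adjusted p over the called metabolic genes ran from 2.61e-145 to 9.37e-05 in the authors' deposited table.

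Clock and early response genes were more often higher at the tip. Circadian clock genes were higher in 20 of 46 (43.5%) and lower in 4. The period genes *per1a* and *per2* rose 2.62-fold and 1.71-fold, with *per1a* at 694, 793, 853, 874 and 907 proximally and 1622, 1914, 2083, 2399 and 2789.9 distally. The groups did not overlap. The cryptochrome gene *cry1bb* and the repressor gene *nfil3* fell 1.9-fold and 2.28-fold. The labels do not give the hour at which each fin was cut. Immediate early genes, which respond within minutes to wounding and handling, were higher in 17 of 44 and lower in 8. The AP-1 gene *fosb* held 1015, 1106, 1278, 1304 and 1700.4 proximally and 2637, 4565, 4928, 5556 and 6694 distally, and *klf4* rose 2.67-fold. The distal values of *fosb* were apart from the proximal ones but spread widely. In the other direction *egr2b*, which Schwann cells also use for myelination, fell 2.68-fold, and *mycb* 1.86-fold. Hypoxia and redox genes were 15 higher and 9 lower of 55, with the hypoxia factor gene *epas1b* at 137 ± 9.35 and 42.2 ± 2.36. Cilia genes were 24 higher and 11 lower of 105.

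Rows for microRNA genes count reads over the gene, and levels of mature microRNAs were not measured here. Of 127 such genes 17 were higher and 3 lower. The deepest rises of those with a mean of at least 20 were *mir27c*, *mir24-2* and *mir23a-2*, which lie next to each other in the GRCz12tu order with at most 1 annotated gene between neighbours. The proximal libraries held 16.1, 17.9, 25.9, 26.3 and 26.6 counts of *mir27c* and the distal libraries 78.0, 91.3, 117, 138 and 146, 5.05-fold more. The others rose 4.45-fold and 4.25-fold, and the groups of all 3 were apart. Whether they are read from a shared precursor was not tested. Over the called clock, early response, hypoxia and microRNA genes, the authors' deposited table gave adjusted p values from 2.98e-19 to 1.76e-06.

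**Figure D5:**
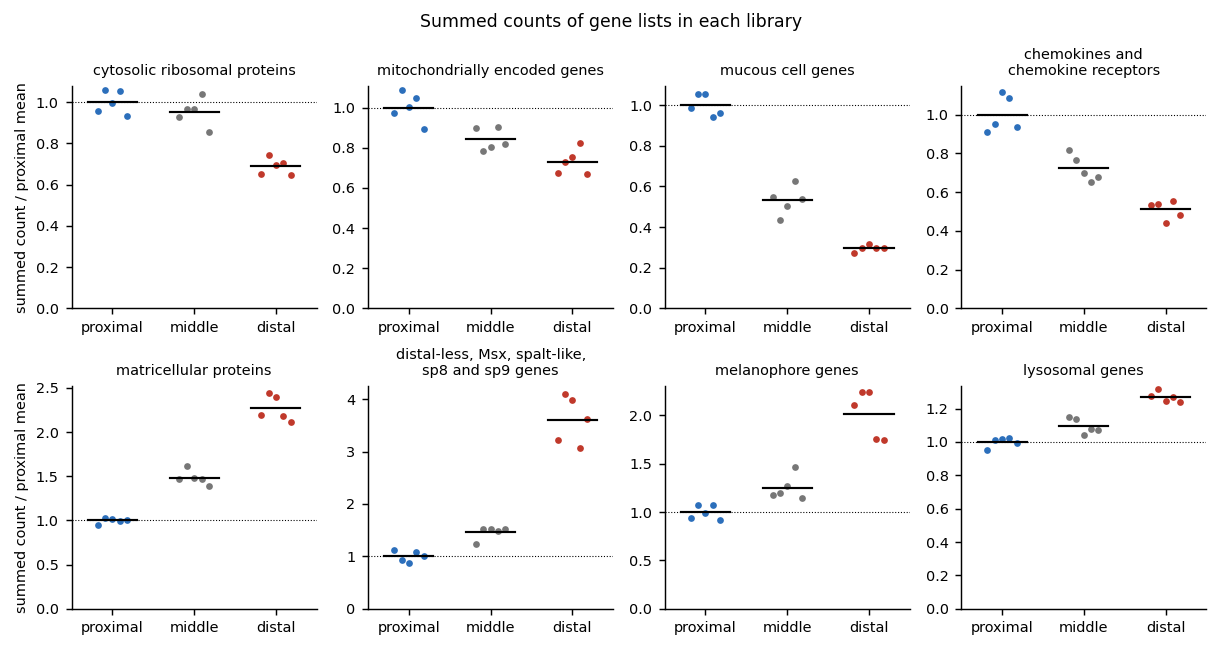
Summed normalized counts of 8 gene lists in each of the 15 libraries, divided by the mean of the 5 proximal libraries (vertical axis), at the proximal, middle and distal position, with the position's mean as a bar. Only members with library values are summed, and among these the abundant ones weigh most. Genes without library values, nearly all of them very abundant, are left out of the sums. Ribosomal protein and mucous cell sums are lower in all 5 distal than in all 5 proximal libraries, and lysosomal and melanophore sums are higher in all 5.

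Among genes with a mean of at least 1000, some of the largest folds were of genes in none of these lists. The deepest fall was of *wu:fk65c09*, which held 2537, 3145, 3670.2, 4206 and 4268 proximally and 0, 0, 0.923, 1.07 and 3.11 distally. The middle libraries, at 3588 ± 635, stood with the proximal ones, and without distal library 4 the log2 fold change went from -11.77 to -12.81. The gene *si:dkey-65b12.6* fell from 4326 ± 199.6 to 57.3 ± 21.6, 75.4-fold. Myocilin (*myoc*) rose from 284 ± 72.0 to 3798 ± 232, 13.4-fold, while the middle, at 140.2, was below both ends. No read of *otud4* (ENSDARG00000087953) was found in a proximal or middle library, while the distal libraries held 0, 0.923, 1776, 5122 and 5138. Its groups overlap at 0, and 3 of the 5 distal pools hold nearly all of its reads. The authors' deposited table gave it an adjusted p of 2.47e-07, whereas limma with no filter on low counts gave 0.505. The largest rise in counts, *zgc:158463*, went from 2349 ± 595 to a mean of 134960.0, but its 5 distal values could not be recovered and its adjusted p in the authors' deposited table was 0.0136. In the same table adjusted p was 3.48e-126 for *wu:fk65c09*, 5.46e-204 for *myoc* and listed as 0 for *si:dkey-65b12.6*.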

How the data were processed

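Total RNA depleted of rRNA was sequenced from 15 pools of caudal fin regions, 5 per position. Per the submitters' processing notes, TopHat2 2.0.13, HTSeq, DESeq and the GRCz10 build were used. For the annotation and the strand setting nothing is given in the sources used here. Per the file headers, the authors' deposited table gives for each gene a mean normalized count per position, which is a signal and not a count, with its fold (distal over proximal ratio), its log2 fold change, a p-value and an adjusted p-value. Genes in this table have a mean over both positions above 1. A deposited table of genes that change along the fin, with a score by the authors, entered no result. No column of a sample was left unmapped.

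From the deposited means of the 3 pairwise tables, which carry 15 digits, the 5 whole counts behind each mean and the size factors were solved for in Python 3.11.15 with numpy 2.4.6. Counts solved apart from 2 tables were the same in 1878 proximal, 1998 middle and 2460 distal genes of under 3 mean counts, and the method was tested on simulated data. Left unsolved were 36 genes of the distal and proximal table, which hold 37.8% of the proximal and 31.3% of the distal normalized counts, so read totals of the solved genes understate the depth. Middle values were put on the scale of the distal and proximal table.

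A gene was called at an adjusted p under 0.05 in the authors' DESeq test. As alternatives, limma 3.58.1 with voom was fitted in R 4.3.3 to the recovered counts of all 15 libraries, with Benjamini-Hochberg adjustment over all genes that had at least 10 reads in at least 5 libraries. The threshold, the filter, the scaling and the libraries in the fit were varied, and each of the 10 libraries was left out in turn. Counting error and pool spread set the precision. The labels do not say that pools are independent of each other in their fish.

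Named were the 10 largest called rises and falls in mean counts, the 5 largest folds each way among genes with a mean of at least 1000, and in each list up to 4 called members each way with the largest fold at a mean of at least 20, with the most abundant member. Not every gene that this rule gives is reported here. Genes and gene lists were chosen with earlier results of these data known. Symbols came from the deposited table and from a table of gene names, for 22125 of 23404 genes.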

Additional observations from a re-analysis of the deposited data

Results flagged for a closer look

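The 5 libraries of a position were examined in 216 of the genes named in the report. In the following 21 cases, 1 library stood apart from the other 4 by Dixon's criterion (a gap of more than 0.710 of the group's range). Chance alone marks about 1 in 20 groups, and 412 groups of 216 genes were examined, for which that rate gives 20.6.

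Distal library 4 was the highest in 6 of them. It held 1006 normalized counts of *bhmt* against 751 to 819 in the other distal libraries, 32.2 of *cbsa* against 17.5 to 20.8, and 23.9 of *kcnh1a* against 9.62 to 11.8. It also held 3363 of *krtt1c19e* against 1472 to 1823, 107 of *mbpa* against 74.1 to 77.7, and 170.1 of *muc5.1* against 44.7 to 65.6. All 6 genes were called lower distally, so that this library lay nearest to the proximal ones in each.

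Of the other distal libraries, library 5 held 63.7 of *acta2* against 31.7 to 37.2, and 0.923 of *galnt8b.2*, which is 1 read, where the others held none. Library 3 held 1092 of *fbn2b* against 809 to 881 and 1703 of *igfbp3* against 1302 to 1413. Library 2 held 7.66 of *grin2bb* against 4.70 to 5.54 and 40.5 of *kif20a* against 25.8 to 29.0.

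Of the proximal libraries, library 5 was the highest for *ckma*, at 150.4 against 33.1 to 62.2, and for *sec23b*, at 7344 against 5584 to 5761, and the lowest for *egr2b*, at 50.7 against 76.3 to 85.2. Library 2 held 485 of *col15a1b* against 363 to 399, 91.8 of *faub* against 70.7 to 76.1, and 5899 of *krt94* against 2682 to 3413. Library 3 held 602 of *itgb2* against 457 to 483 and was the lowest for *dlx6a*, at 6.60 against 18.1 to 20.8. Library 4 held 3482 of *ca2* against 2710.4 to 2824.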

How the results depend on the processing

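The authors' test called 4181 genes higher and 4234 lower. An adjusted p under 0.01 left 3267 and 3148, and genes with a mean of at least 10, adjusted again, gave 4099 and 3886 of 18162. Limma called 4865 and 4841 of 18837 genes, 5054 and 5236 of 23290 with no filter, and 4751 and 4584 of 18273 from the proximal and distal libraries alone. With 1 library left out the counts ran from 4546 to 4772 higher and from 4410 to 4767 lower. Scaling by the totals of the genes with recovered values gave 4075 higher and 5819 lower, so 41.2% of the calls were higher. Those totals leave out the abundant genes that were not solved. Equal totals of both positions over all genes gave 5655 and 4128, or 57.8%, against 49.7% in the authors' table. Against limma with size factors, these scalings moved the log2 fold changes of the fitted genes by a median of -0.08 and 0.07. Small folds are therefore relative to the scaling. All of these counts stayed within 1.5 times the authors'. Of 4018 higher and 3901 lower calls of the authors that entered the limma fit, 4005 and 3886 were called the same way.

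Of 216 named genes, none called by the authors' test or by a limma fit that it entered turned its direction in that fit. This held with all libraries and with a library left out. For named genes called by neither, such as *yap1*, *piezo1* and *kdrl*, a change of sign was not counted. The 0.01 threshold and the filter on the mean keep the authors' folds, so they cannot turn a direction. Named genes with no library values, such as *zgc:158463*, entered no limma fit, so their direction was not tested. The same holds for a named gene in any fit whose filter on low counts it did not pass. Calls ended for *cd3eap*, *faub* and *zgc:158463* at the 0.01 threshold, with adjusted p of 0.0184, 0.0159 and 0.0136, and for *otud4* by limma with no filter (adjusted p of 0.505). Of the counts of list members called in 1 direction, 138 of 1218 under the other settings and 162 of 1740 with a library left out moved by more than 1.5 times against the authors' counts.

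The authors' test called 6 higher and 8 lower endoplasmic reticulum genes, limma 12 and 14, and limma with equal totals 17 and 7. Respiratory chain genes were higher in 9, 15 and 30 in the same order. Iridophore genes were 7 higher and 10 lower, then 11 and 11, then 13 and 10. In the limma fit, endoplasmic reticulum genes were lower in 14, but in 8 without proximal library 2 and 7 without distal library 1. Higher calls went from 15 to 9 among respiratory chain and from 14 to 9 among proteasome genes without proximal library 1, and from 4 to 7 among erythrocyte genes without distal library 5. Lower calls went from 6 to 3 among desmosome genes without distal library 2, from 5 to 3 among other collagens and from 3 to 5 among proteasome genes without proximal library 5, and from 6 to 2 among osteoblast genes without proximal library 4 and to 3 without proximal library 1, 2 or 5. Higher calls among splicing factors went from 6 to 3 without proximal or distal library 4, and in 9 other lists counts of at most 4 moved by 1 or 2. The cause was not tested. No paired analysis was possible because the recovered values carry none of the labels' replicate numbers.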
